A study of Homo sapiens with 8 samples.

Results

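Mitochondrially encoded transcripts were listed at 10 single-base positions of the mitochondrial chromosome, in MT-CO2, MT-RNR2, MT-ND6 and MT-ND5. They were 4 of the 4945 genes and 10 of the 9962 positions in the deposited table of N1-methyladenosine (m1A) sites, and no other mitochondrial gene had a listed position. The members were taken by gene name from positions that the authors had selected on the p-value of these same reads, so the counts and fold changes of these positions are given as a description, without a test. The 2 siTRMT6 libraries came from neuroblastoma cells transfected with small interfering RNA against TRMT6, and the 2 control libraries from cells labelled control. The cells are called SK-N-AS in the source and cell line fields and SK-N-BE in the sample titles, which are different lines. Whether the replicates were separate cultures is not stated, and the count columns do not say whether they hold immunoprecipitated or input reads. They were taken as m1A reads because they stand in a table of m1A sites. TRMT6 itself had no listed position, so its silencing could not be checked here, and it was not possible to separate more m1A from more RNA of a transcript.

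m1A carries a methyl group on the base-pairing face of adenine and stops or misleads reverse transcriptase. In the cytosol, TRMT6 and its catalytic partner TRMT61A methylate the T-loop of tRNAs. Mitochondria use other enzymes: TRMT61B methylates tRNAs and the 16S rRNA, and TRMT10C with HSD17B10 methylates tRNAs and has been reported to methylate MT-ND5 mRNA. The mitochondrial chromosome is copied into long transcripts of both strands, which are cut into rRNAs, mRNAs and tRNAs. Most of the mRNAs then receive short poly(A) tails, and human MT-ND6 mRNA is known to lack a long one. The libraries were made from oligo(dT)-purified RNA, per the labels' protocols.

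The 10 positions took the highest places in every library. In siTRMT6 1 the 3 mitochondrial positions held 131 to 221 reads, and the highest nuclear position, in the growth factor gene IGF2, held 68. In siTRMT6 2 the 3 positions held 128 to 150 reads, against 46 at IGF2. The 2 positions of control 1 held 140 and 220 reads, against 57 at the transcription factor gene PHOX2A. The 2 positions of control 2 held 122 and 193 reads, against 73 at IGF2. The lowest mitochondrial count was thus 1.67 to 2.78 times the highest nuclear count of the same library, while the median position held 8 or 9 reads. As a gene total MT-CO2 ranked 1 of 4945, MT-RNR2 2, MT-ND6 5 and MT-ND5 45. The 5 nuclear genes with the most reads, SRRM2, GSE1, IGF2, MKI67 and SPTBN1, held 291 to 378 reads, spread over 6 to 19 positions each. Each mitochondrial count stood at 1 base and in 1 library. This held for most of the table, as 9822 of the 9962 listed positions (98.6%) had reads in 1 library.

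**Figure D1:**
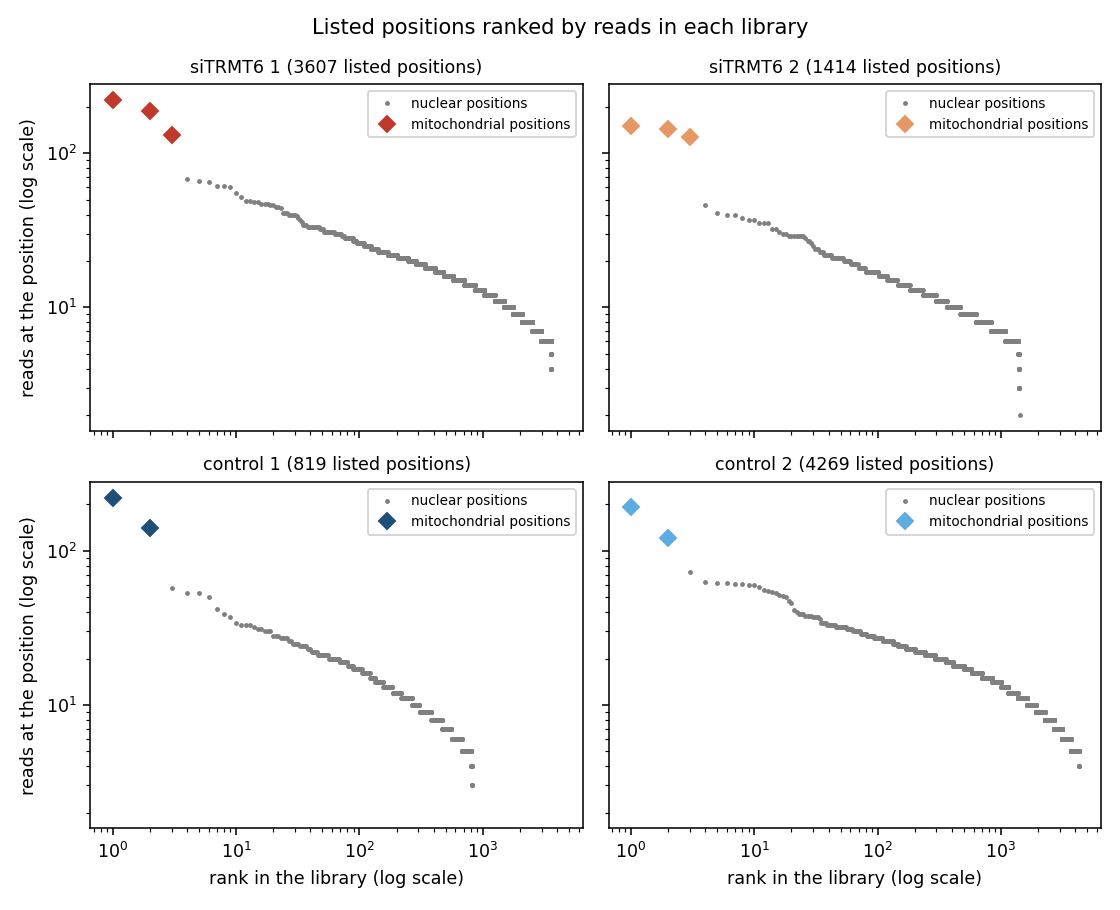
Reads at each listed position (vertical axis, log scale) against its rank within the library (horizontal axis, log scale), 1 panel per library. Diamonds are mitochondrial positions and grey points nuclear ones. In each of the 4 panels the diamonds hold the highest ranks, with a gap above the first nuclear position.

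MT-CO2 encodes subunit II of cytochrome c oxidase, which takes electrons from cytochrome c. Its coding sequence, on the plus strand at chrM:7586-8269 (hg38, counted from 1), held 4 listed positions, 1 for each library. At position 8025, siTRMT6 1 had 221 reads, and at 7987 siTRMT6 2 had 144. At 8033 control 2 had 193 reads, and at 8103 control 1 had 220. The siTRMT6 counts averaged 182.5 ± 54.5 reads and the control counts 206.5 ± 19.1 reads (SD, n = 2 each), and the groups overlapped, since siTRMT6 1 was the highest library and siTRMT6 2 the lowest. The positions lay in codons 134, 147, 150 and 173 of 228, at the third, second, first and second base of the codon. They covered 58.8% to 75.7% of the way along the coding sequence, with gaps of 38, 8 and 70 nt.

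Summed over the 116 nt from 7987 to 8103 and divided by the reads at all listed positions of each condition, MT-CO2 had 365 siTRMT6 reads and 413 control reads, a log2 ratio of -0.18 (siTRMT6 over control, 95% interval for counting error -0.38 to 0.03). Replicates differed by more than this ratio: their SD was 0.32 in log2 reads and 1.38 once each library was divided by its own listed reads. The ratio had no fixed direction: it was 0.46 without siTRMT6 1, 0.67 without control 1 and -1.93 without control 2. With 2 libraries against 2, an exact two-sided permutation test cannot give a p below 0.333. The authors' deposited table, by contrast, gave the 4 bases log2 fold changes of 7.99 (7987), 8.60 (8025), -8.78 (8033) and -8.97 (8103). Neighbouring bases 8 nt apart therefore carried changes of opposite sign in the authors' deposited table, each resting on the reads of 1 library.

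MT-RNR2 is the 16S rRNA of the large subunit of the mitochondrial ribosome, on the plus strand at chrM:1671-3229. At position 2550, siTRMT6 1 had 131 reads, and siTRMT6 2 had no listed read in this RNA. Control 2 had 122 reads at 2693 and control 1 had 140 at 2748. The 3 libraries with reads lay within 18 reads of each other, and siTRMT6 2 stood apart from them at 0. The positions were bases 880, 1023 and 1078 of 1559, or 56.4% to 69.1% of the way along the rRNA, with gaps of 143 and 55 nt. The summed 131 siTRMT6 reads against 262 control reads gave a log2 ratio of -0.998, with siTRMT6 2 counted at 0. Without siTRMT6 2 the ratio was -0.58, without control 1 it was -0.14 and without control 2 it was -2.75, and without siTRMT6 1 no siTRMT6 read remained. With each library divided by its own listed reads the ratio was -2.55. The authors' deposited table gave the bases 7.85, -8.12 and -8.31 in that order.

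The m1A described earlier in human 16S rRNA corresponds to base 2617 of the mitochondrial chromosome. None of the 3 listed bases was this one. The siTRMT6 1 position lay 67 nt before it, the control 2 position 76 nt after it and the control 1 position 131 nt after it. The listed positions, which spanned 198 nt, thus stood on both sides of the described base. Whether they reflect that base was not tested.

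MT-ND6 encodes a membrane subunit of respiratory complex I and is the protein-coding gene of the light strand, annotated to the minus strand at chrM:14149-14673. At position 14616, siTRMT6 1 had 189 reads, and at 14593 siTRMT6 2 had 128 reads. Neither control library had a listed read in MT-ND6. The siTRMT6 counts averaged 158.5 ± 43.1 reads (SD, n = 2), and the control counts were 0 and 0. Libraries without reads were common: of 8005 regions formed by joining positions within 200 nt, 13 had reads in all 4 libraries. Both siTRMT6 libraries had reads in 465 nuclear regions, and both control libraries in 261. How many of these had no read in the other condition was not counted, so the MT-ND6 pattern has no share to be set against. The positions lay 23 nt apart at bases 58 and 81 of the coding sequence, 11.05% and 15.4% of the way along, in codons 20 and 27 of 175. The 5' end of this coding sequence borders the gene of the mitochondrial glutamate tRNA, whose nearest base lay 58 and 81 nt away.

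MT-ND6 had 317 siTRMT6 reads against 0 control reads. If a deposited 0 means that no read was seen, a floor of 3 counts over the control libraries gives a 106-fold bound. It applies to siTRMT6 over control on the scale of listed reads of all 4 libraries, and changed with that scale. The bound was 4.07 in log2 without control 2 and 7.40 without siTRMT6 1, against 6.73 with all 4 libraries. Without control 2 the sums stayed at 317 and 0, and only the divisor of listed reads changed. It is not stated whether a 0 means no read or no call at that base. The authors' deposited table gave log2 fold changes of 8.38 (14616) and 7.82 (14593), and adjusted p-values of 6.77e-34 and 4.23e-24. Across that table each of the 126 combinations of a siTRMT6 sum and a control sum had a single p-value, whichever replicate held the reads.

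MT-ND5, the proton-pumping complex I subunit at the far end of its membrane arm, was listed at 1 base of its plus-strand coding sequence at chrM:12337-14148. siTRMT6 2 had 150 reads at position 13134, its highest count, while siTRMT6 1, control 1 and control 2 had 0. The siTRMT6 libraries therefore differed from each other by 150 reads, and siTRMT6 1 was as low as the controls. The base was number 798 of 1812, the third base of codon 266 of 604. The m1A described earlier in MT-ND5 mRNA corresponds to base 13710, 576 nt beyond the listed one. The authors' deposited table gave this base a log2 fold change of 8.04.

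**Figure D2:**
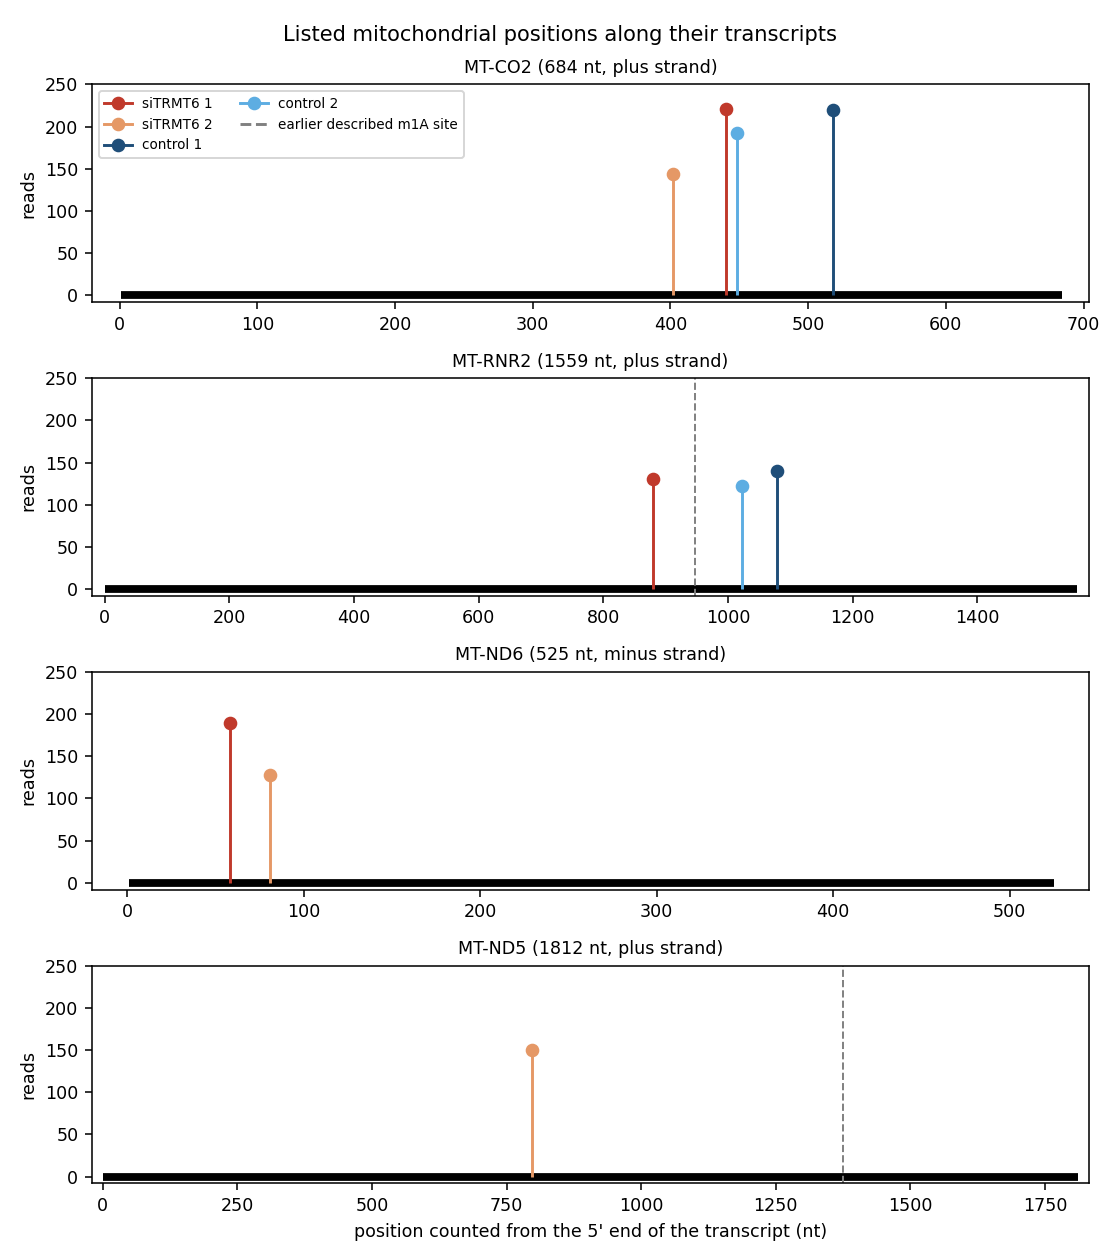
Reads (vertical axis) at each listed position along its transcript (horizontal axis, nt from the 5' end), 1 panel per transcript, with the library in colour and earlier described m1A sites as dashed lines. Every stem is 1 library at 1 base, and no stem stands on a dashed line.

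**Figure D3:**
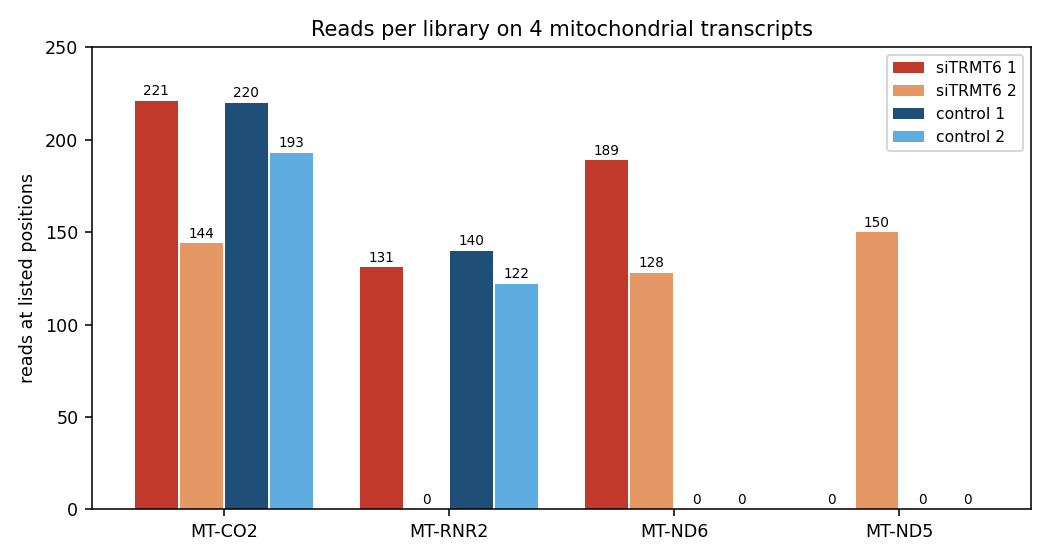
Reads at listed positions (vertical axis) for each of the 4 transcripts, with 1 bar per library. MT-CO2 has a bar in all 4 libraries, MT-RNR2 lacks siTRMT6 2, MT-ND6 has siTRMT6 bars and no control bar, and MT-ND5 has siTRMT6 2 alone.

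By the call rule of the authors' deposited table (adjusted p below 0.05), 6 of the 10 positions were higher and 4 lower in siTRMT6. Of all 9962 positions, 49.6% were called higher and 50.4% lower, so being called says nothing particular about the mitochondrial ones. The 10 positions held the 10 smallest p-values of the authors' deposited table, from 4.66e-46 for 8103 in MT-CO2 to 2.09e-27 for 14593 in MT-ND6. Since each pair of summed counts had a single p-value, this restates the high reads of these positions and is no separate result. Summed over all 10, the siTRMT6 libraries had 541 and 422 mitochondrial reads and the control libraries 360 and 315, a log2 ratio of 0.51. The sum followed which transcripts were listed: with MT-CO2 and MT-RNR2 alone it was -0.44. It was 1.31 without siTRMT6 1, 0.10 without siTRMT6 2, 1.37 without control 1 and -1.24 without control 2, with the divisor of listed reads changing each time.

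Within a library, reads of different transcripts can be set against each other without a scale between libraries. MT-RNR2 had 0.593 reads per MT-CO2 read in siTRMT6 1 (exact 95% interval 0.474 to 0.739), against 0.636 in control 1 (0.511 to 0.790) and 0.632 in control 2 (0.4997 to 0.797). The 3 intervals overlapped almost wholly. MT-ND6 had 0.855 reads per MT-CO2 read in siTRMT6 1 (0.701 to 1.04) and 0.889 in siTRMT6 2 (0.695 to 1.14). MT-ND5 had 1.04 reads per MT-CO2 read in siTRMT6 2 (0.823 to 1.32). The libraries in which a transcript was listed thus gave nearly the same proportion to MT-CO2. Libraries without a listed read of it were left out of these proportions. MT-RNR2 had 0 reads in siTRMT6 2, against 144 of MT-CO2. MT-ND6 had 0 reads in control 1 and 2, against 220 and 193 of MT-CO2. The intervals cover counting error only, and reads without molecular identifiers are not independent molecules.

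Transcripts listed in both replicates of a condition gave similar ratios between them, while MT-RNR2 and MT-ND5 were each listed in 1 siTRMT6 library alone. siTRMT6 2 had 0.652 times the MT-CO2 reads of siTRMT6 1 (0.525 to 0.807) and 0.677 times its MT-ND6 reads (0.537 to 0.852). In 9 nuclear regions with 20 or more reads in both libraries the median of this ratio was 0.667. Control 2 had 0.877 times the MT-CO2 reads of control 1 (0.719 to 1.07) and 0.871 times its MT-RNR2 reads (0.678 to 1.12), whereas 17 nuclear regions had a median of 1.16 (quartiles 1.06 and 1.20). The reads at all listed positions gave very different ratios, 0.339 for siTRMT6 2 over 1 and 5.32 for control 2 over 1. The mitochondrial share of listed reads moved against those totals: 1.33% (Wilson 95% interval 1.22 to 1.44) of 40771 reads in siTRMT6 1, 3.06% (2.78 to 3.36) of 13812 in siTRMT6 2, 4.16% (3.76 to 4.60) of 8655 in control 1 and 0.685% (0.613 to 0.764) of 46007 in control 2. The libraries with the fewest listed positions, control 1 with 819 and siTRMT6 2 with 1414, had the highest shares. Totals over listed positions are not sequencing depth, which is unknown here.

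**Figure D4:**
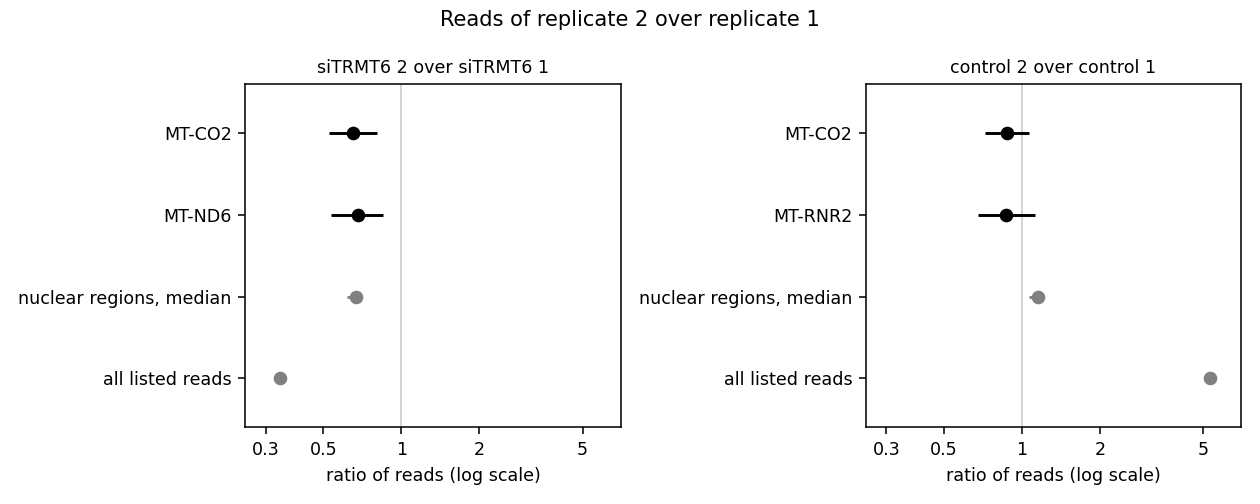
Reads of replicate 2 over replicate 1 (horizontal axis, log scale), siTRMT6 on the left and control on the right. Black points are mitochondrial transcripts with exact 95% counting intervals, and grey points are the median over nuclear regions with its quartiles and the ratio of all listed reads. The mitochondrial ratios lie at 0.652 and 0.677 for siTRMT6 and at 0.877 and 0.871 for control, far from the ratios of all listed reads at 0.339 and 5.32.

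MT-CO2 was 1 of 13 regions listed in all 4 libraries when positions within 200 nt were joined. The 12 nuclear ones, led by the calmodulin gene CALM3 with 102 reads, held 26 to 102 reads each and spanned 5 to 191 nt (median 41.5), against 778 reads over 116 nt in MT-CO2. Scaled by the median ratio over those 12 regions, MT-CO2 had 188.8 and 180.3 reads in siTRMT6 1 and 2, against 234.9 and 165.9 in control 1 and 2. On that scale the siTRMT6 values lay between the control values. MT-RNR2 had 111.9 in siTRMT6 1, against 149.5 and 104.9 in control 1 and 2, again between the controls, and 0 in siTRMT6 2. MT-ND6 had 161.5 and 160.3 in the siTRMT6 libraries. The 12 regions were themselves chosen for being listed in every library.

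**Figure D5:**
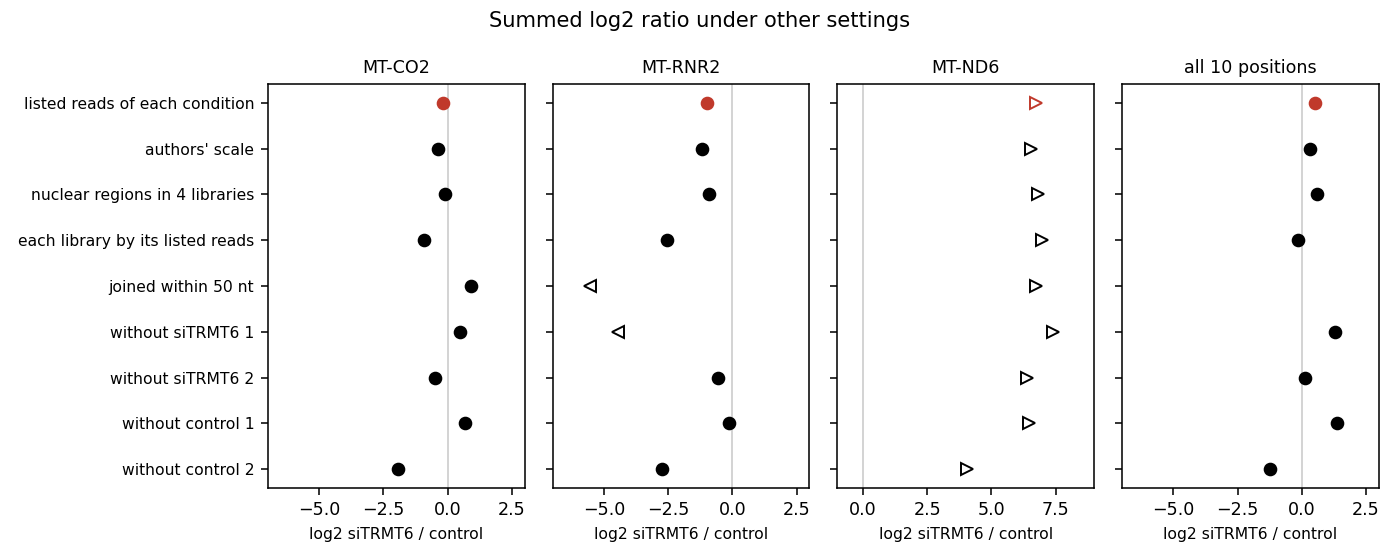
Log2 ratio of summed siTRMT6 reads over control reads (horizontal axis) under 9 settings, with the reported value in red. Open triangles are bounds set by the floor of 3 counts, filled circles are measured ratios. The MT-CO2 values lie on both sides of 0, those of MT-RNR2 below it and those of MT-ND6 above it.

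In both MT-CO2 and MT-RNR2 the siTRMT6 positions lay nearer the 5' end than the control positions. In nuclear regions with both conditions on 1 strand, the mean position of each condition, weighted by reads, was compared. The siTRMT6 mean lay nearer the 5' end in 732 of 1354 (54.1%). This is close to an even split, so either order was common there. How often every siTRMT6 position came first was not counted.

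The letters of the mitochondrial chromosome were not available, so the bases at the 10 positions were not read. They could be read at 511 nuclear positions that fall in RefSeq promoter windows (GRCh38.p14), and at all 511 the plus strand of the genome held A, against 21.2% of all bases in those windows. This included 341 of 341 positions annotated to minus-strand transcripts alone, where an A on the plus strand is a U in the transcript. Plus-strand transcripts held 7174 positions (72.0%) and minus-strand ones 2500 (25.1%), while 50.7% of RefSeq promoters belong to plus-strand genes. MT-CO2, MT-RNR2 and MT-ND5 are annotated to the plus strand, and MT-ND6 to the minus strand. Both MT-ND6 positions share the annotated strand of the 341 positions at which the base was a U in the annotated transcript. The positions read were all nuclear and in promoter windows. Among them, 341 were annotated to the minus strand alone and 127 to the plus strand alone, unlike the list as a whole. Whether the MT-ND6 bases follow this pattern, and whether their reads came from MT-ND6 mRNA or from the opposite strand, was not tested.

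None of the other 11 mitochondrial rRNAs and mRNAs (MT-RNR1, MT-ND1, MT-ND2, MT-ND3, MT-ND4, MT-ND4L, MT-CO1, MT-CO3, MT-ATP6, MT-ATP8 and MT-CYB) had a listed position. Positions were listed in nuclear copies of 4 of these genes; the RefSeq table names 487 nuclear copies of mitochondrial genes. MTATP6P1, a copy of MT-ATP6 on chromosome 1, had 41 reads in siTRMT6 1 at 634198. MTCO1P12, a neighbouring copy of MT-CO1 whose positions the deposited table lists under MIR6723, had 31 reads in siTRMT6 2 at 631301, against 42 in control 1 at 632254 and 39 in control 2 at 632282, 28 nt apart. MTND2P28, a copy of MT-ND2 beside it, had 39 reads in control 2 at 629987. These 5 positions held 72 siTRMT6 reads and 120 control reads. MTND4P12 on chromosome 5 had 14 reads in control 1 at 134927246. The same stretch of chromosome 1 holds MTCO2P12, a copy of MT-CO2 of 682 bases (chr1:632757-633438), which had no listed position. The table names 34 nuclear copies of MT-CO2, 13 of MT-RNR2, 45 of MT-ND5 and 36 of MT-ND6. How reads that match both genomes were assigned is not given in the sources used here, so the counts of all 4 transcripts are uncertain to that extent.

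Among 24 nuclear genes of mitochondrial RNA methylation, processing and related m1A enzymes, 10 had 18 positions, with at most 18 reads of a gene in a library. The authors' deposited table called 7 of these positions higher and 11 lower in siTRMT6. Of all 9962 positions it called 49.6% higher and 50.4% lower, so the calls say nothing particular about these genes. TRMT61A, the partner of TRMT6, had 18 and 0 siTRMT6 reads, against 0 and 17 in the controls. TRMT61B, the 16S rRNA methyltransferase, had 0 and 0 siTRMT6 reads, against 5 and 6 in the controls. Those 2 counts lay below the median listed position of the control libraries (8 and 9 reads). ALKBH1, MRM1 and FASTKD2 had reads in control 2 alone (5, 5 and 6). TRMT10C had 0 and 0 in the siTRMT6 libraries, against 0 and 6 in the controls. PRORP, the nuclease of mitochondrial RNase P (listed as KIAA0391), had 7 and 0 siTRMT6 reads, against 0 and 14 in the controls. SLIRP, which stabilises mitochondrial mRNAs, had 12 and 0 siTRMT6 reads, against 0 and 0 in the controls. MTERF4, needed for assembly of the mitochondrial ribosome (listed as MTERFD2), had 13 and 6 siTRMT6 reads, against 0 and 0 in the controls. GRSF1, of the mitochondrial RNA granule, had 8 and 0 siTRMT6 reads, against 0 and 7 in the controls. HSD17B10, ELAC2, NSUN4, LRPPRC, POLRMT, TFAM, TFB1M and TFB2M were among the 14 without a position.

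Among 503 nuclear genes with 50 or more reads, those whose reads divided over the 4 libraries most like MT-CO2 were H1F0, SOX12 and PHOX2A, which differed from it in 4.83%, 5.01% and 6.36% of reads. PHOX2A had 49 and 24 siTRMT6 reads, against 57 and 50 control reads. For MT-RNR2 they were FTSJ3, PRDX5 and XXbac-BPG181M17.6 (2.80% to 6.05%), all without reads in siTRMT6 2. For MT-ND6 they were EIF4H, GAPDH and ZNF316 (0.319% to 3.09%). EIF4H had 51 and 35 siTRMT6 reads and GAPDH 32 and 23, with 0 in both controls, so a gene with siTRMT6 reads alone in a proportion near that of MT-ND6 was found outside the mitochondrion too. Of the 503 genes, VGF alone had all its reads in siTRMT6 2, as MT-ND5 did, with 59 reads over 2 positions.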

How the data were processed

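One deposited table was used. The submitters' processing notes name STAR, FastQC 0.11.3 and the build hg38; how positions were called, counted and tested is not given in the sources used here. For each position the deposited table has, per the file headers, 4 count columns, the authors' log2 fold change and their p-values, raw and adjusted. The deposited log2 fold changes equalled summed siTRMT6 over summed control counts (a 0 set to 0.5) divided by 1.14 at all 9962 positions. Listed coordinates count from 0 and were raised by 1; all 10 mitochondrial positions then matched their transcript positions and the RefSeq gene starts.

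Counts were summed over positions joined within 200 nt and divided by the listed reads of each condition, in Python 3.11.15 with pandas 2.3.3 and SciPy 1.17.1. Joining and intervals were tested on simulated data with counting error alone and reads in every library. Absent libraries and spread between replicates were not covered by that test. A sum of 0 was set to 3 counts. The reported genes were the 4 members, the 5 nuclear genes with most reads, the 3 most alike in read shares and 2 lists. Members and lists were chosen with earlier results of these data known. The bases of the members needed a genome, which was not used here. Input libraries are not analysed here.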

Additional observations from a re-analysis of the deposited data

How the results depend on the processing

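Of 54 alternatives, 36 moved a value by less than the SD of the replicates' log2 reads (or left a distance as it was) and 18 by more. For MT-RNR2 that SD was 2.73, set by a 0 replaced with 3 counts, so large shifts of it count among the 36. Scaling each library by its own listed reads gave log2 ratios of -0.90 for MT-CO2, -2.55 for MT-RNR2 and -0.14 for all mitochondrial positions. Joining within 50 nt gave 0.92 for MT-CO2, and for MT-RNR2 a bound of -5.54, because the siTRMT6 position was no longer joined. Joining within 100 nt gave MT-RNR2 a bound of -6.45 and a span of 55 nt. Adding 0.5 counts to both sums gave 9.31 for MT-ND6, which depends on the added count. Leaving out 1 library gave -1.93 to 0.67 for MT-CO2, -4.46 to -0.14 for MT-RNR2, 4.07 to 7.40 for MT-ND6 and -1.24 to 1.37 for all positions. Of these, the MT-ND6 values and the -4.46 are bounds. Each library left out also took its listed reads out of the divisor. After seeing the data, scaling by nuclear regions listed in all 4 libraries was added, which gave -0.09, -0.91, 6.82 and 0.61 in the same order, and the sum over MT-CO2 and MT-RNR2 alone, which gave -0.44. Beyond the alternatives' own construction, the cause was not tested. No paired analysis was possible because these values come from no test, to which a replicate block could be added. With depth unknown and 1 library per base, a missing position cannot be told apart from a base without reads.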
